A study of Homo sapiens with 6 samples.

Results

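First 3′ UTR sites are the polyadenylation sites that lie nearest to the coding region among the listed sites of a 3′ UTR. A site was included when the authors' deposited site table gave it the type code F and named a polyadenylation signal near it, either the hexamer AATAAA, the hexamer ATTAAA or another variant. The rule used annotation only and no measured usage, and 838 of the 4903 listed sites met it, 1 in each of 838 genes of 3118. Another 139 F sites were left out because no signal was named (95 sites) or because the surrounding sequence was marked as A-rich (44 sites), where a genomic run of A can be taken for a poly(A) tail. No source used here defines the codes F, M and L. They were read as first, middle and last, since 575 of the 575 included sites with a listed M or L site lay upstream of all of them along the strand.

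The libraries came from LNCaP, an established androgen-sensitive human prostate cancer cell line, so the results describe 1 cell line. Cells were silenced in 2 rounds for 48 hours with small interfering RNA at 50 nM, with a scrambled sequence (siCTRL), against Sam68 (siSAM68) or against XRN2 (siXRN2), and each group had 2 replicates. Control cells therefore also went through the transfections. Libraries were made by 3′READS, a method that sequences the last bases of polyadenylated RNA and so places the cleavage site. The design asks how silencing of either protein changes the choice of polyadenylation sites.

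As background, most human genes can end their transcripts at more than 1 site. The cleavage and polyadenylation specificity factor reads a hexamer a short way upstream of the cut, and AATAAA is the strongest form. Cutting at the first site gives the shortest 3′ UTR and leaves out the downstream stretch, which can hold microRNA and protein binding sites. Sam68, encoded by KHDRBS1, is a nuclear RNA-binding protein of the STAR family, and XRN2 is the nuclear exonuclease that degrades the RNA left after cleavage and takes part in transcription termination.

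To show what separates a first from a last site, the ends of 3 genes whose first site passed the test below are printed. Each pair comes from GENCODE v29 transcripts (GRCh38) whose annotated ends lie as far apart as the 2 sites in the table, with a difference of at most 1 base, and carry the hexamers the table names. Each line gives the last 30 bases before the annotated end, 5′ to 3′, with the hexamer named in the table in capitals.

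PDIA6 first site: attaaagAATAAAatattttggacaatgcc
PDIA6 last site: acttaaaaaAATAAAtacaactgtcactaa
COPZ1 first site: acacttcagATTAAAgtaggagaaagaatg
COPZ1 last site: aaagaggAATAAAacattttttccaaactg
PTPN21 first site: tcATTAAAgtgcatagatttctatcttaaa
PTPN21 last site: ggatttctgAATAAAaatctatccacatta

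In GRCh38 the first-site stretches lie at chr2:10783861-10783890 (PDIA6, minus strand), chr12:54350850-54350879 (COPZ1, plus strand) and chr14:88467770-88467799 (PTPN21, minus strand). PDIA6 has AATAAA at both ends. COPZ1 and PTPN21 have ATTAAA at the first site and AATAAA at the last.

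The included sites carried the strongest hexamer less often than last sites did. AATAAA was named at 408 sites (48.7%), ATTAAA at 180 (21.5%) and another variant at 250 (29.8%). Among the 1191 last sites with a signal 70.1% had AATAAA, and among the 1369 middle sites with a signal 53%. In 414 genes both a first site with a signal and a last site were listed. There AATAAA stood at the last site only in 145 genes, at the first site only in 57, at both in 144 and at neither in 68. The last site lay a median of 745 bases downstream of the first (quartiles 234 and 1882 bases, range 25 to 13644). In 218 genes the first site was the only site of its gene in the table. In 10 cases an included site shared its position with one listed under another gene name, so the 838 sites stand at 833 positions and the reads of such pairs cannot be assigned to 1 gene.

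Depth was limited and unequal. The smallest steps of the deposited expression values give between 245088 and 1599945 reads on the listed genes per library, and the siCTRL libraries were the shallowest with 245088 and 448058. Read numbers behind a single site are not in the table, and only 192 of the 838 genes are in the expression table, where the median gene had about 53.2 and 109 reads in siCTRL against 414 in the deepest siXRN2 library. KHDRBS1 stood at 601 and 741 RPM in siCTRL, after scaling each library to its group's total, at 53.8 and 27.5 RPM in siSAM68 and at 895 and 567 RPM in siXRN2. The expression table does not list XRN2, so the level of its RNA was not analysed here. Of 12 luminal prostate markers 9 were in the expression table, with a summed level of 901 to 1821 RPM as deposited, and 0 of 10 markers of other cell types were, which that table cannot turn into a level. The table is also a selected list. By the authors' deposited table, 83.8% of the included sites and 81.1% of all listed sites had an absolute score of 1.3 or more against control in 1 knockdown or both, so the adjusted p-values below, which run over the listed sites only, can be too small. The labels do not say that replicates came from separate cultures, and p-values then measure only the spread between these libraries, which may be technical.

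Usage, the percent of a gene's reads on a site, was spread over the whole range. The median first site had a usage of 33.6% and 32.2% in the siCTRL libraries, 28.8% and 29.9% in siSAM68, with 30.0% and 32.4% in siXRN2. Both siSAM68 medians were below both siCTRL medians, a difference of -3.62 percentage points, while 1 siXRN2 library lay above a siCTRL library and the difference was -1.76 points. The exact two-sided permutation test over libraries gave p = 0.333 for siSAM68, which is the smallest p that 2 libraries against 2 can give, and p = 0.667 for siXRN2. For last sites with a signal the medians ran the other way, with 43.8% and 46.2% in siCTRL, 50.0% and 49.8% in siSAM68, with 48.8% and 48.1% in siXRN2. Sites at 0 numbered 81 and 56 of the included sites in siCTRL, 57 and 41 in siSAM68, with 49 and 22 in siXRN2, so zeros were most frequent in the shallowest library.

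Usage followed the signal in every library. Sites with AATAAA had median usages of 42.9% and 38.8% in siCTRL, 36.7% and 38.6% in siSAM68, with 39.3% and 40.4% in siXRN2. Sites with ATTAAA stood at 35.6% in both siCTRL libraries, 31.1% and 32.1% in siSAM68, with 32.6% and 32.3% in siXRN2. Sites with another variant stood at 21.0% and 20.0%, 18.1% and 19.5%, and 17.1% and 18.0%. The order of the 3 signals was therefore the same in the 6 libraries.

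**Figure D1:**
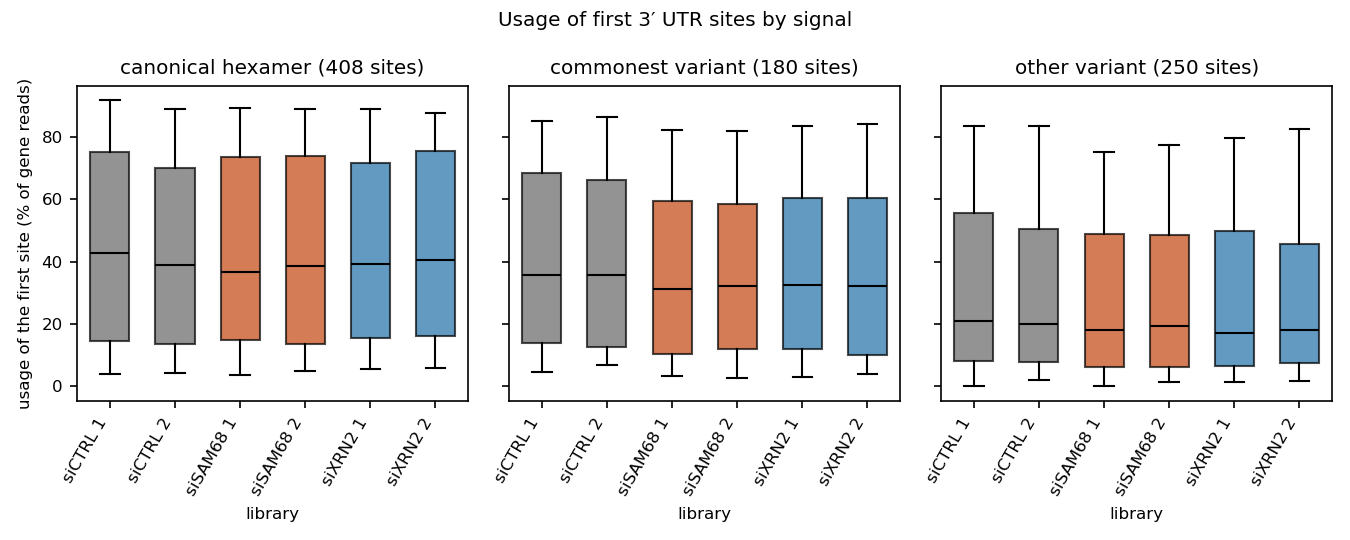
Usage of first 3′ UTR sites in percent of the gene's reads, in each of the 6 libraries, for sites with AATAAA (canonical hexamer), ATTAAA (commonest variant) and another variant. Boxes show the quartiles, lines the medians and whiskers the 10th and 90th percentiles. The medians step down from 36.7% to 42.9% over the libraries for the canonical hexamer to 17.1% to 21.0% for the other variants.

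After silencing of Sam68, 99 first sites of 837 tested changed usage by limma's adjusted p, 51 higher and 48 lower. Over all listed sites 14.6% passed in that comparison, 8.68% higher and 5.96% lower, against 6.09% and 5.73% of the first sites. The share of first sites that fell is thus near that of all sites, and the share that rose is below it. The 51 sites that rose gained between 5.16 and 56.2 percentage points (median 21.0), and the 48 that fell lost a median of 24.2 points. Of the sites that rose 17 were at 0 in both siCTRL libraries. The median change over the first sites was -0.12 on the log2(percent + 1) scale against -0.03 over all listed sites. The 99 calls rest on both siSAM68 libraries: the count was 0 without either of them, and 28 without siCTRL replicate 1, the shallowest library. Leaving out siXRN2 replicate 1 or 2, which enter this comparison through the shared estimate of the spread, gave 53 and 48.

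**Figure D2:**
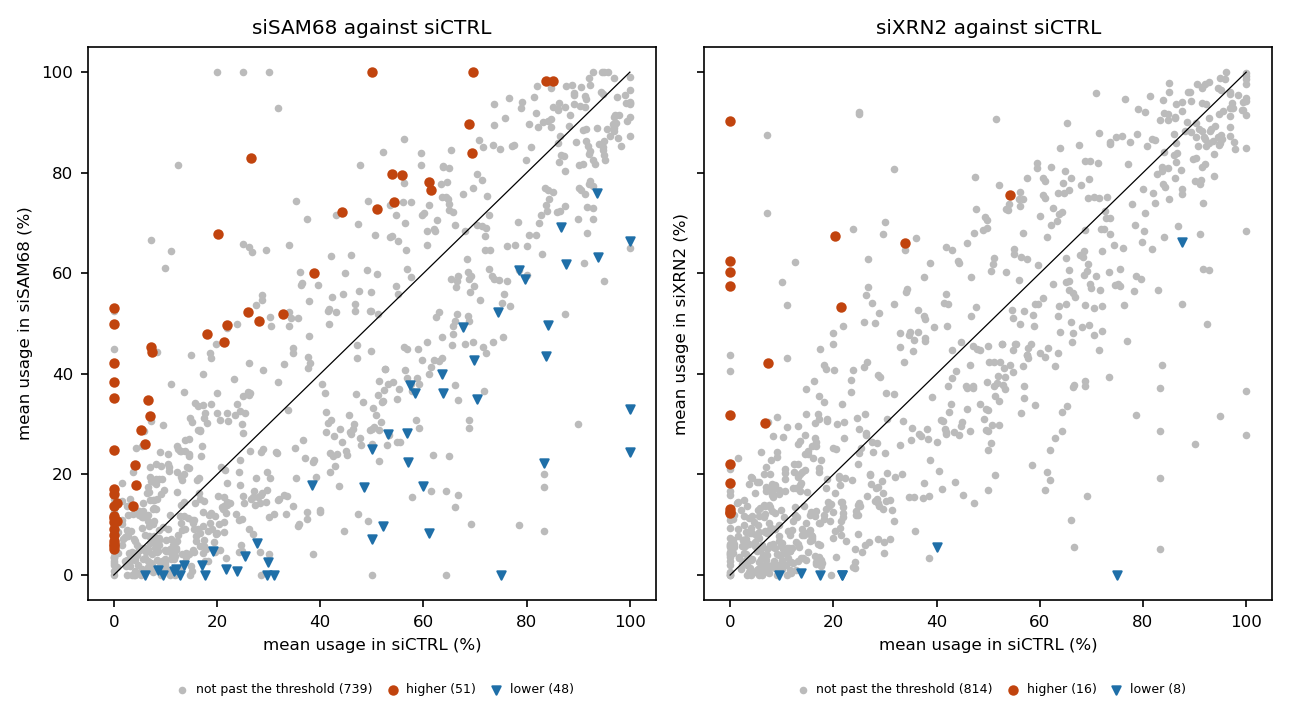
Mean usage in percent of each first site in siCTRL (horizontal) against siSAM68 or siXRN2 (vertical), 2 libraries per group, with the line of equal usage. Sites past an adjusted p of 0.05 in limma are coloured. In siSAM68 51 are higher and 48 lower, in siXRN2 16 higher and 8 lower, and a column of sites that are higher stands at 0% in siCTRL.

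Among the 148 first sites whose gene had at least about 20 reads in every library, 17 (11.5%) passed in siSAM68 against siCTRL, 10 higher and 7 lower. In that comparison 11.8% of all first sites and 14.6% of all listed sites passed. In siXRN2 3 of the 148 (2.03%) passed, beside 2.87% of all first sites and 5.19% of all listed sites. The deep sites thus passed no more often than the rest. The selection by reads was made after the values were seen. PDIA6, a protein disulfide isomerase of the endoplasmic reticulum, was the deepest of those that fell, with about 367 to 2325 reads per library. Its first site (hg19 chr2, position 10923987, minus strand, the first PDIA6 sequence above) took 88.3% and 87.0% of reads in siCTRL, 63.0% and 60.7% in siSAM68, with 68.7% and 63.6% in siXRN2. The last site, 470 bases downstream, took 11.8% and 13.0%, 37.0% and 39.3%, and 31.3% and 36.4%. Neither knockdown group overlapped the control group. The log2 change was -0.50 ± 0.07 (SE) in siSAM68 (adjusted p = 0.0245) and -0.40 ± 0.07 in siXRN2 (adjusted p = 0.045). The siSAM68 and siXRN2 libraries differed from each other by -0.09 ± 0.07 (adjusted p = 0.579). Of 13 alternatives, 5 ended the PDIA6 call in siSAM68, among them the fit without the trend and the omission of siCTRL replicate 1 or either siSAM68 library, and 11 ended it in siXRN2.

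Another 6 deep first sites fell in siSAM68. SCARB2 encodes a lysosomal membrane protein that carries glucocerebrosidase to the lysosome. Its first site went from 55.0% and 58.8% in siCTRL to 30.8% and 25.6% in siSAM68 (log2 change -0.99 ± 0.18, adjusted p = 0.0385), and it stood at 33.1% and 37.5% in siXRN2, where it missed the threshold (adjusted p = 0.0852). PRKD1, the gene of protein kinase D1, had 70.7% and 57.0% in siCTRL and 37.1% and 35.1% in siSAM68 (adjusted p = 0.0432). ANKH encodes a membrane protein needed for pyrophosphate release. Its first site had 66.2% and 69.3% in siCTRL, 51.3% and 47.5% in siSAM68, with 64.6% and 62.6% in siXRN2. The siXRN2 libraries of ANKH were close to the control, but the test between the knockdowns did not pass (adjusted p = 0.272). C15orf17 fell from 47.8% and 52.1% to 23.2% and 27.1% (adjusted p = 0.0476). First sites of low usage in this group were KIAA0494, at 10.9% and 6.15% against 1.14% and 0.99%, and OLA1, an Obg-like ATPase gene, at 16.1% and 8.16% against 0.62% and 1.92%. OLA1 stood at only 15.2 and 24.1 RPM as deposited in siCTRL, where 1 read is about 0.491 RPM. The control usage of OLA1 therefore rests on few reads.

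A pair of mitochondrial ribosomal protein genes of the small subunit was among the deep sites that rose. The first site of MRPS16, with about 769 to 3205 reads, had 60.9% and 62.0% in siCTRL, 76.4% and 76.9% in siSAM68 (log2 change 0.31 ± 0.06, adjusted p = 0.0421) and 67.0% and 67.5% in siXRN2 (adjusted p = 0.182). MRPS18C had 56.3% and 52.3% in siCTRL, 71.7% and 76.5% in siSAM68 (0.44 ± 0.08, adjusted p = 0.0359), and 76.4% and 74.6% in siXRN2 (0.47 ± 0.08, adjusted p = 0.043). Both groups of both genes lay above the control libraries, and in siXRN2 only MRPS18C passed. The MRPS18C call ended in 8 of 13 alternatives for siSAM68 and in 11 for siXRN2. STC2, the gene of the secreted glycoprotein stanniocalcin 2, went from 69.4% and 69.3% to 83.8% and 84.1% in siSAM68. MFAP1, a spliceosome component, went from 62.2% and 60.0% to 76.5% and 79.9%. GATAD2A, a subunit of the NuRD chromatin remodelling complex, had 24.6% and 19.5% in siCTRL, 49.1% and 50.3% in siSAM68, with 27.0% and 27.6% in siXRN2. The siSAM68 value of GATAD2A passed (1.15 ± 0.21, adjusted p = 0.0388), the siXRN2 value did not (adjusted p = 0.307), and the difference between the knockdowns, 0.84 ± 0.21, did not pass either (adjusted p = 0.28). MAU2, part of the complex that loads cohesin on chromatin, rose from 15.0% and 21.2% to 45.3% and 50.4% in siSAM68 and stood at 40.0% and 43.6% in siXRN2. The others that rose were LINC00094, LMAN1, PRRT3 and WDYHV1, of which PRRT3 and WDYHV1 were at 0 in both siCTRL libraries. MAU2 and LINC00094 lay near the limit of 20 reads in siCTRL replicate 1, where 1 read is about 0.491 RPM. As deposited, MAU2 had 9.8 and 16.2 RPM in siCTRL and LINC00094 had 9.8 and 19.7 RPM. Their control usage therefore rests on few reads.

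**Figure D3:**
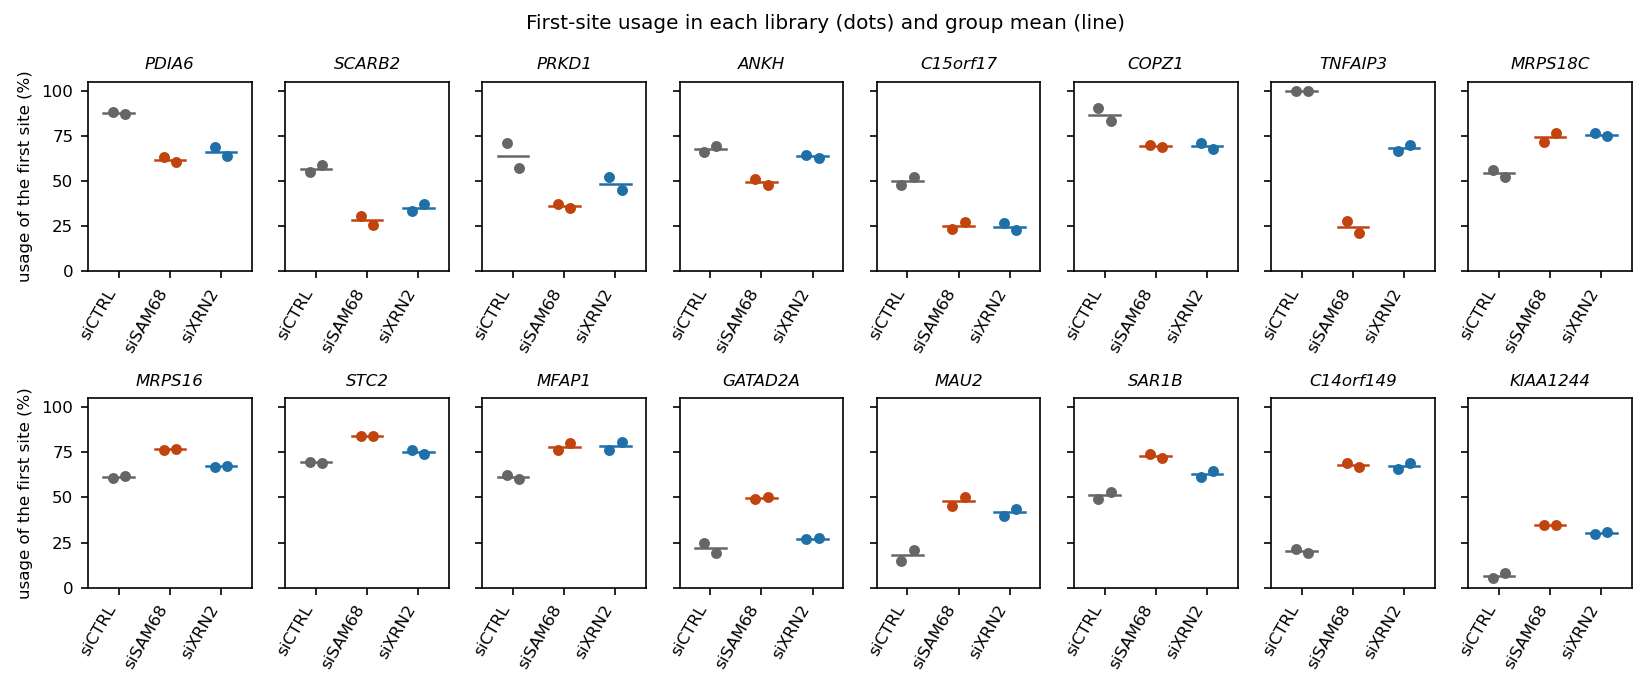
Usage in percent of 16 first sites that passed the test in siSAM68 against siCTRL, as dots for the 2 libraries of each group and a line for the group mean. PDIA6 falls from 88.3% and 87.0% in siCTRL to 63.0% and 60.7% in siSAM68, and GATAD2A rises in siSAM68 while its siXRN2 libraries are at 27.0% and 27.6%.

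A second group of named sites, chosen after the values were seen, was above 0 in all 6 libraries and changed most in percentage points. TNFAIP3 encodes A20, a ubiquitin-editing enzyme that restrains NF-κB signalling. Its first site held 100% in both siCTRL libraries, 27.8% and 21.1% in siSAM68, with 66.7% and 70.0% in siXRN2. Its log2 change was -2.0 ± 0.15 in siSAM68 (adjusted p = 0.0091), and the last site 717 bases downstream took the rest of the reads. The 2 siCTRL libraries of TNFAIP3 were equal and added no spread to the fit, so this SE can be too small. Of 13 alternatives, the omission of either siSAM68 library ended this call. The difference between the knockdowns for TNFAIP3, -1.46 ± 0.15, had an adjusted p of 0.0837. Among those that fell were also PSMD14, the deubiquitinase of the proteasome lid (69.2% and 52.9% against 3.12% and 13.5%), the lysosomal hydrolase gene AGA (66.7% and 33.3% against 4.44% and 10.0%) and the semaphorin receptor gene PLXNA1 (80.0% and 60.9% against 32.7% and 37.1%). PTPN21, a tyrosine phosphatase gene whose ends are printed above, had 75% and 92.3% in siCTRL and 50.0% and 37.0% in siSAM68, and its call (adjusted p = 0.0495) was lost in 11 of 13 alternatives. The rest of those that fell were LOC645513, LOC728554, LOC728743, PTP4A3 and SLC24A6.

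Among those that rose, C14orf149 had 21.4% and 19.1% in siCTRL, 68.8% and 66.9% in siSAM68, with 65.7% and 69.2% in siXRN2. Its log2 change was 1.70 ± 0.13 in siSAM68 (adjusted p = 0.0091) and 1.69 ± 0.13 in siXRN2 (adjusted p = 0.0124). C14orf149 stood at only 6.9 and 10.3 RPM as deposited in siCTRL, where 1 read is about 0.491 RPM. Its control usage therefore rests on few reads. KIAA1244 went from 5.38% and 8.05% to 34.5% and 34.9% in siSAM68 and to 29.6% and 30.7% in siXRN2. UFSP2, a protease that matures the ubiquitin-like protein UFM1, went from 41.7% and 46.8% to 72.7% and 71.7% in siSAM68. The first site of GLA, which encodes the lysosomal enzyme alpha-galactosidase A, went from 66.7% and 72.7% to 100% in both siSAM68 libraries. The other sites of this group that rose in siSAM68 were GATAD2A, LLPH, MAU2, ST20-MTHFS and ZNF555.

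By the naming rule on size, the 10 largest log2 changes among the sites that rose in siSAM68 belonged to sites listed at 0 in both siCTRL libraries. ZC3H7B was at 0 in both siCTRL libraries, at 72.7% and 33.3% in siSAM68, and at 57.1% and 57.9% in siXRN2. ZNF224 was at 0 in siCTRL, at 55.6% and 28.6% in siSAM68, and at 50.0% and 70.6% in siXRN2. HTATIP2, MCF2L-AS1, FAM132A, BANK1, MKRN1, C16orf55, MMP16 and PSMD12 were the others. No fold is given against a group listed at 0. Among the 10 largest that fell, C9orf95, FAM98B and VPS36 were at 0 in both siSAM68 libraries. C8orf40, PSMD14, PTBP2, SHB and TRDMT1 kept reads in at least 1 of them.

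After silencing of XRN2, 24 first sites of 836 tested passed, 16 higher and 8 lower. Over all listed sites 5.19% passed, 3.79% higher and 1.4% lower, against 1.91% and 0.957% of the first sites. Of the 24, 9 that rose were at 0 in both siCTRL libraries and 5 that fell were at 0 in both siXRN2 libraries. The sites above 0 in all 6 libraries were 6 that rose, among them C14orf149, KIAA1244, MRPS18C and PTP4A1, and 2 that fell, PDIA6 and TRAF3IP1. PTP4A1, a phosphatase of the PRL family, had 21.7% and 21.1% in siCTRL, 46.2% and 60.5% in siXRN2, and 42.6% and 50.0% in siSAM68. TRAF3IP1, a component of ciliary transport, had 50.0% and 30.0% in siCTRL, 5.00% and 6.25% in siXRN2, and 12.1% and 13.9% in siSAM68. The largest that fell otherwise were C6orf47, ECE1, PPP1R12A, TRDMT1 and VPS36, all at 0 in at least 1 siXRN2 library. RIMS1 and WDYHV1 were at 0 in siCTRL and at 10.99% to 15.2% in siXRN2. The siXRN2 count moved with single libraries: the count was 0 without siXRN2 replicate 1, without siXRN2 replicate 2, or without siSAM68 replicate 2, and 7 without siSAM68 replicate 1. Without siCTRL replicate 1 the count was 15, and without siCTRL replicate 2 it was 45.

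Both knockdowns were set against the same 2 control libraries, so their changes share any error of those libraries. HEG1, which passed as lower in each knockdown, has no value in siCTRL replicate 2, which the fit left out. Tested directly, siSAM68 and siXRN2 differed at 0 of 836 first sites by limma's adjusted p (0.0% of all listed sites), and 88 first sites had an unadjusted p under 0.05, where 13.2% of all listed sites did. Without the mean-variance trend limma called 1. Of the 5 sites whose knockdown groups lay on opposite sides of both controls, which were picked out by their values, none passed in any comparison. TMEM18 had 81.3% and 78.3% in siCTRL, 83.1% and 81.9% in siSAM68, with 64.8% and 67.5% in siXRN2 (adjusted p = 0.18 between the knockdowns). CTDSPL2, RAB11A, RIOK2 and XPOT were the others.

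Among the size-ranked sites between the knockdowns, none of which passed, SMAP1 had 0% in siCTRL, 4.44% and 7.92% in siSAM68, with 0% in siXRN2. TRIM5, an antiviral restriction factor gene, had 0% in siCTRL, 30.4% and 0% in siSAM68, with 44.4% and 36.7% in siXRN2. The first site of XRN2 itself (hg19 chr20, position 21370087, plus strand) had 9.09% and 24.0% in siCTRL, 25.0% and 7.50% in siSAM68, with 7.69% and 0% in siXRN2, and it did not pass the test (adjusted p = 0.959 in siSAM68 and 0.196 in siXRN2).

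Counted by class, first sites with a signal stood below middle and last sites in the share that rose. In siSAM68 6.09% of first, 9.73% of middle and 8.99% of last sites with a signal rose, while 5.73%, 5.60% and 4.37% fell. In siXRN2 1.91%, 4.13% and 4.12% rose and 0.957%, 1.55% and 1.26% fell. Of the F sites without a signal 7.30% rose and 5.84% fell in siSAM68, and 3.65% and 1.46% in siXRN2. Sites of the same gene share 100% of usage, so these classes depend on each other, and the difference between classes was not tested. Where groups did not overlap, first sites leaned to lower usage in siSAM68: 371 lay below and 288 above both control libraries, of 837. Over all listed sites 38.6% lay below and 36.9% above. In siXRN2 335 of 836 lay below and 277 above, where 36.2% and 34.2% of all listed sites did. The F sites without a signal leaned the same way, so the lean was not particular to sites with a signal. Of 137 such sites 65 lay below and 44 above in siSAM68, and 67 and 40 in siXRN2. Between the knockdowns 241 had lower and 178 higher usage in both siSAM68 libraries than in both siXRN2 libraries, where 25.6% and 26.4% of all listed sites did.

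**Figure D4:**
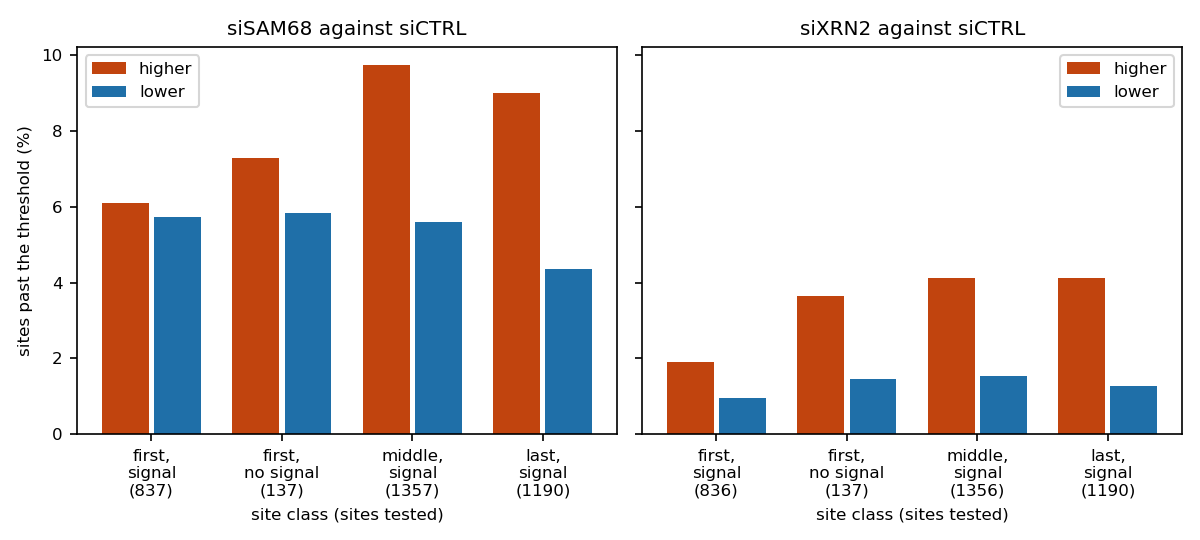
Percent of tested sites past an adjusted p of 0.05 in each knockdown against siCTRL, by site class, with the number of sites tested below each pair of bars. In siSAM68 6.09% of first sites with a signal rose and 5.73% fell, and among last sites with a signal 8.99% rose and 4.37% fell.

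The first site was then set against its own downstream sites, as log2 of first-site usage over the summed usage of the listed middle and last sites, which could be done for 575 genes. In 230 of them the first and downstream sites made up at least 99% of usage in every library, so there a gain of one side is a loss of the other by construction. The first site's share of this usage had a median of 50.0% and 47.9% in siCTRL, 42.6% and 40.0% in siSAM68, with 45.5% and 44.9% in siXRN2. Every knockdown library lay below both controls. The ratio passed in siSAM68 in 195 genes, 86 toward the first site and 109 toward the downstream sites. Over all 669 genes of the ratio test, which have an F site and a listed M or L site, 33.3% passed (14.3% and 19.0%). Most of the 669 are the 575 genes themselves, so this share is not a separate background. In the other 94 genes, with an F site without a signal, 10.6% and 19.1% passed in siSAM68. In siXRN2 the ratio passed in 50 of 574 genes, 26 and 24. Over all genes of the ratio test 9.43% passed there (4.79% and 4.64%). The 195 calls fell to 48 without siCTRL replicate 1, to 1 and 17 without siSAM68 replicate 1 and 2, and to 25 and 33 without siXRN2 replicate 1 and 2. The 50 calls in siXRN2 fell to 0 without either siXRN2 library, to 4 without siCTRL replicate 1, and to 9 and 10 without siSAM68 replicate 1 and 2. Between the knockdowns 0 ratios passed by limma's adjusted p. Of 574 ratios 71 had an unadjusted p under 0.05 in limma, where 12.0% over all genes of the ratio test did.

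The downstream sites of the called first sites mostly lay on the other side. Of the 51 first sites that rose in siSAM68, 35 had a listed downstream site, and its summed usage was lower in 35 of 35 with a median change of -19.8 percentage points. Of the 48 that fell, 37 had one, and its usage was higher in 37 of 37 with a median change of 29.1 points. Shared totals make opposite signs the rule here. Singly, 12 of 45 and 19 of 40 downstream sites passed in the opposite direction in siSAM68, and 1 in each set passed in the same direction. Over all listed sites 5.96% passed as lower and 8.68% as higher. The downstream sites were picked through a called partner that shares their total, so these calls are no separate support. In siXRN2 the downstream sum was lower for 10 of 11 first sites that rose and higher for 2 of 2 that fell. There 0 of 15 and 2 of 2 downstream sites passed in the opposite direction in limma, beside 1.4% lower and 3.79% higher of all listed sites.

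The median ratio differed with the signal of the first site. In siSAM68 the median log2 change was 0.14 for the 277 first sites with AATAAA, -0.91 for the 124 with ATTAAA and -0.76 for the 174 with another variant. In siXRN2 these medians were -0.03, -0.57 and -0.61. Calls in siSAM68 ran 50 toward and 43 away from the first site for AATAAA (18.1% and 15.5%). They ran 19 and 28 for ATTAAA (15.3% and 22.6%), and 17 and 38 for the others (9.77% and 21.8%). Over all genes of the ratio test 14.3% and 19.0% passed. In usage 32 were higher and 19 lower for AATAAA (7.84% and 4.66%). For ATTAAA 8 and 15 were (4.44% and 8.33%), and for the others 11 and 14 (4.42% and 5.62%). Over all listed sites 8.68% were higher and 5.96% lower. Both AATAAA usage shares were thus below those of all sites, and the share of the others that fell was near it. In shares, the first site's part of the listed 3′ UTR usage was 54.5% and 52.9% in siCTRL for ATTAAA, 41.6% and 39.8% in siSAM68, with 45.1% and 45.7% in siXRN2. For AATAAA it was 54.1% and 50.9%, 50.0% and 50.1%, and 50.0% and 53.1%. With ATTAAA every knockdown library lay below both controls, and with AATAAA the siXRN2 libraries overlapped them. These are descriptions, and the difference between signals was not tested.

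The ratio was also split by the distance to the last site, and the difference between these groups was not tested. For first sites under 500 bases from the last site (172 genes) the median log2 change in siSAM68 was -0.25, for 500 to 1000 bases (74 genes) -0.30, for 1000 to 2000 bases (69 genes) -0.72 and for over 2000 bases (99 genes) -0.92. In siXRN2 the medians were -0.08, -0.22, -0.71 and -0.66. In the most distant group 25 genes (25.3%) passed toward the downstream sites and 10 (10.1%) toward the first in siSAM68. In the nearest group 28 (16.3%) and 22 (12.8%) did, where 19.0% and 14.3% of all 669 genes of the ratio test passed. In the group of 1000 to 2000 bases the first site's share fell from 58.9% and 53.9% in siCTRL to 42.3% and 39.9% in siSAM68 and stood at 45.5% and 42.4% in siXRN2. Within each group the quartiles spanned 0, so genes moved both ways at every distance.

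**Figure D5:**
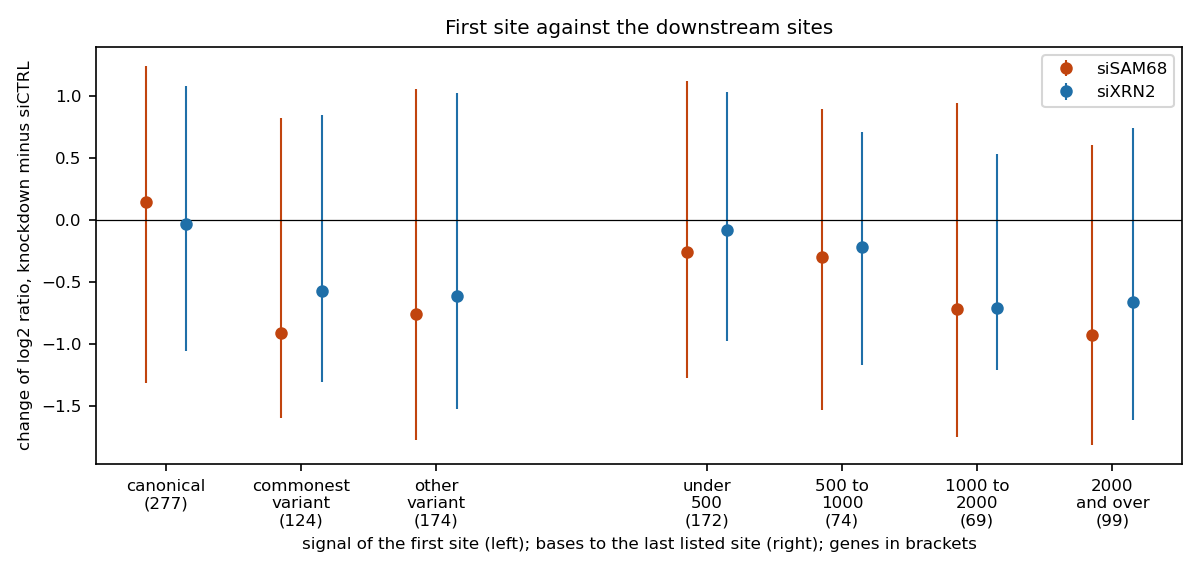
Change of the log2 ratio of first-site to downstream usage, knockdown minus siCTRL, by the signal of the first site (left) and by the bases to the last listed site (right). Points are medians over genes and bars the quartiles, with the number of genes in brackets, and the bars describe the spread over genes and not an error. In siSAM68 the medians fall from 0.14 with the canonical hexamer to -0.91 with ATTAAA, and from -0.25 under 500 bases to -0.92 over 2000 bases.

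Cell cycle genes were few among the included sites, and single genes moved in both directions. Of 60 genes of the G2/M and mitosis list 10 had an included site. In usage alone 0 changed in either knockdown, beside 14.6% of all listed sites in siSAM68 and 5.19% in siXRN2. Against the downstream sites 3 of 7 passed toward the first site in siSAM68, beside 14.3% of all genes of the ratio test. CCNB1 encodes cyclin B1, which drives entry into mitosis. Its first site had 60.9% and 68.1% in siCTRL, 77.0% and 79.3% in siSAM68, with 80.3% and 75.8% in siXRN2, with 34.1% and 28.8%, 17.4% and 15.7%, and 16.5% and 18.9% on the downstream sites. The CCNB1 ratio changed by 1.16 ± 0.29 in siSAM68 (adjusted p = 0.0399) and missed the threshold in siXRN2 (adjusted p = 0.0687). BUB3, a spindle checkpoint gene, had 9.02% and 6.5% on the first site in siCTRL, 15.8% and 14.1% in siSAM68, with 14.5% and 12.6% in siXRN2, and its ratio passed in both knockdowns (adjusted p = 0.0398 and 0.0474). In SMC2, a condensin subunit gene, the downstream site went from 11.8% and 11.4% to 0% and 0.85% in siSAM68 while the first site had 17.7% and 22.9% against 15.5% and 16.1%. The ratio of SMC2 therefore passed (adjusted p = 0.022) although the first site itself was not higher. CENPE, a kinetochore motor gene, went the other way in value, from 66.7% and 65.4% to 29% and 46.4%, and its ratio did not pass (adjusted p = 0.058).

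In the G1/S and replication list, 5 of 66 genes had an included site. Toward the downstream sites 2 of 4 ratios passed in siSAM68, beside 19.0% of all genes of the ratio test. CDKN1B encodes the cyclin-dependent kinase inhibitor p27. Its first site had 15.6% and 10.8% in siCTRL, 3.55% and 4.78% in siSAM68, with 6.67% and 5.62% in siXRN2, and the ratio changed by -1.59 ± 0.41 in siSAM68 (adjusted p = 0.0435). CDC6, which licenses replication origins, had 31.0% and 10.0% in siCTRL, 7.59% and 2.56% in siSAM68, with 4.71% and 2.53% in siXRN2, and its ratio passed in both (adjusted p = 0.0279 and 0.0492).

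Of 79 splicing factors and RNA-binding proteins 15 had an included site. In siSAM68 1 was higher and 1 lower, beside 8.68% and 5.96% of all listed sites. In siXRN2 0 passed, beside 5.19% of all listed sites. PUM2, a Pumilio repressor of target RNAs, was at 0 in siCTRL and at 7.37% and 4.35% in siSAM68. PTBP2, the polypyrimidine tract binding protein of neurons, went from 11.1% and 12.2% to 0% and 1.54%. In the ratio 1 of 11 rose in siSAM68 and 3 fell, beside 14.3% and 19.0% of all genes of the ratio test. The gene that rose was PCBP2, a poly(C) binding protein, with 17.4% and 20.2% in siCTRL against 32.7% and 35.2% in siSAM68 on its first site. The 3 that fell were ESRP2, PTBP2 and SRSF10. ESRP2, an epithelial splicing regulator, had 78.4% and 86.3% in siCTRL and 70.4% and 69.6% in siSAM68 on its first site. SRSF10 had no read on the downstream site in siCTRL and 11.4% and 6.76% in siSAM68, and its ratio also passed in siXRN2 (adjusted p = 0.0474).

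Of 98 vesicle and membrane trafficking genes 16 had an included site, 1 higher and 1 lower in siSAM68, beside 8.68% and 5.96% of all listed sites. SAR1B, the GTPase that starts COPII coats on vesicles leaving the endoplasmic reticulum, went from 49.2% and 52.9% to 73.9% and 71.8% (0.50 ± 0.08, adjusted p = 0.0325). COPZ1, a subunit of the COPI coat of retrograde vesicles, went from 90.5% and 83.0% to 70.0% and 68.6% (-0.32 ± 0.07, adjusted p = 0.0464), and it stood at 70.8% and 67.8% in siXRN2 (adjusted p = 0.0644). In the ratio 2 of 13 passed toward the first site in siSAM68, RAB14 and SAR1B, and 3 away from it, COPZ1, GOLGB1 and STX6. Among all genes of the ratio test 14.3% and 19.0% did. In siXRN2 RAB14 passed toward the first site (adjusted p = 0.0474), with 0% in both siCTRL libraries, 3.39% and 8.26% in siXRN2. Of 36 genes of endoplasmic reticulum stress 2 had an included site, PDIA6 and PDIA4. The first site of PDIA4, another disulfide isomerase, had 92.8% and 91.7% in siCTRL and 97.3% and 97.6% in siSAM68, so the ratio passed in opposite directions for the 2 genes.

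In the remaining lists 0 first sites changed in usage in either knockdown, beside 14.6% of all listed sites in siSAM68 and 5.19% in siXRN2. They held 4 of 42 genes of cleavage, polyadenylation and termination, 4 of 42 androgen-responsive genes, 3 of 40 of the p53 pathway, 2 of 39 of sterol and fatty acid synthesis, 4 of 46 of the interferon response and 5 of 76 ubiquitin ligases and deubiquitinases. In the ratio, TPD52, an androgen-responsive vesicle gene, and USP9X, a deubiquitinase gene, passed toward the downstream sites in siSAM68. Among all genes of the ratio test 19.0% did. USP37 passed the threshold in siXRN2, but this value is not used, since its first and downstream sites were equal in both siCTRL libraries and both at 0 in both siSAM68 libraries, which leaves no spread between replicates there. The first site of USP9X had 84.6% and 82.9% in siCTRL, 74.5% and 72.7% in siSAM68, with 79.7% and 80.9% in siXRN2. Lists of this size cannot show whether a group of genes stands apart, and none was tested as a set.

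For the 192 genes of the expression table, RNA levels and first-site usage could be set side by side. Expression passed as higher in 94 and lower in 28 of them in siSAM68, where 35.3% and 23.4% of the listed genes passed. Of the 15 first sites that fell in siSAM68 in these genes, 11 lay in genes with higher expression and 1 in a gene with lower expression. Of the 11 that rose, 5 lay in genes with higher and 3 in genes with lower expression. Across the 192 genes the change of usage and the change of expression had a Pearson's r of -0.24 and a Spearman's rho of -0.23 in siSAM68. In siXRN2 they were -0.38 and -0.34, and between the knockdowns -0.19 and -0.18, so the inverse relation was not particular to siSAM68. The comparisons share libraries, so these correlations are not independent of each other. Both measures come from the same reads and libraries, and genes are not independent replicates. PDIA6 stood at 509 and 545 RPM in siCTRL after scaling and at 784 and 706 RPM in siSAM68 (adjusted p = 0.0239), with lower first-site usage. MRPS16 stood at 1068 and 969.5 RPM in siCTRL and at 649 and 620.4 RPM in siSAM68 (adjusted p = 0.00741), with higher first-site usage. MRPS18C had higher expression together with higher first-site usage, at 89.1 and 82.9 RPM against 161 and 145 RPM (adjusted p = 0.00701). In such bulk RNA, fewer cells with a transcript and less of it per cell cannot be told apart.

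For siSAM68 the authors' deposited table gave 511 of 837 first sites an absolute score of 1.3 or more, 220 with the knockdown higher and 291 with it lower, where 56.9% of all listed sites had one (28.2% and 28.7%). For siXRN2 the authors' deposited table gave 412 of 835 such a score, 199 higher and 213 lower, where 47.8% of all listed sites had one (22.1% and 25.7%). Of the 99 first sites called here in siSAM68, 94 were also past the score in the authors' deposited table, all 94 in the same direction. For siXRN2 it was 21 of 24, all 21 in the same direction. Over all listed sites 639 of 712 calls in siSAM68 and 206 of 252 in siXRN2 were past the score, all in the same direction. The score comes from the same libraries, so this overlap is no separate support for the calls. What the score measures is defined neither in the labels nor in the headers.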

How the data were processed

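The authors deposited 1 table of polyadenylation sites and 1 of gene expression for the 6 libraries, with usage as a percent of a gene's reads and expression as RPM, per the file headers. Per the submitters' processing notes, cutadapt and Bowtie2 were used with hg19, with no version stated. The authors' deposited score, a signed significance score per site, was only described. Usage was tested as log2(percent + 1) over sites with a mean of at least 1% (4862 for siSAM68 against siCTRL), and the first-to-downstream ratio as log2 with 1 added to both sums, with limma 3.58.1 (R 4.3.3), 3 groups in 1 fit, a mean-variance trend and Benjamini-Hochberg adjustment over all listed sites or genes (threshold 0.05). Fold changes on this scale understate changes of low sites. Scripts were tested on simulated data. RPM was rescaled to each group's listed total, and approximate reads are RPM divided by the smallest step of the group (0.491, 0.238 and 0.157 RPM), for depth only.

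Named sites were, per knockdown and direction, the 10 with the largest log2 change among those past the threshold whose groups do not overlap and whose usage reaches 5% in 1 group (5 between the knockdowns), plus called sites of 11 gene lists and the XRN2 site. Sites above 0 in all libraries or with at least 20 reads were added after the values were seen. The members, lists and tests were chosen with earlier results of these data known. No label states that replicate numbers pair the libraries, though the sample descriptions share a tag by replicate number across groups. Correlations of replicate deviations between groups were 0.04, 0.017 and -0.002. At this depth, where sampling of reads adds to the deviations, such values cannot exclude a pairing. Site sequences come from GENCODE v29, since no genome of the files' build was used here. Some sites that met these rules are not reported here.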

Additional observations from a re-analysis of the deposited data

How the results depend on the processing

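Of the named calls 0 reversed direction in the alternatives run. Sites named by size were chosen for groups that do not overlap, so leaving out 1 library or changing the pseudocount could not reverse them. The 0 is therefore no measure of stability for those sites. Which calls pass depends on the libraries and the spread estimate. Of the 79 named calls, 56 passed without the trend, 27 with 2 groups in the fit and 8 with the replicate block, and 5 and 0 without siSAM68 replicate 1 and 2. First sites called in siSAM68 (99) numbered 51 with only the 2 groups compared in the fit and 158 among sites above 0 in all 6 libraries, and 0 to 94 when 1 library was left out. In siXRN2 (24) they numbered 42 without the mean-variance trend and 0 with 2 groups in the fit, and 0 to 45 when 1 library was left out. Ratios called in siSAM68 (195) numbered 26 with 2 groups and 1 to 152 without 1 library. In siXRN2 (50) they numbered 16 without the trend, 98 with a pseudocount of 5%, 9 with 2 groups, 181 above 0 in all libraries and 0 to 57 without 1 library. Between the knockdowns 1 first site passed without the trend. With the replicate block, calls were 11 and 0 for usage and 43 and 0 for the ratio. The numbers mark no stated pairing, and whether they pair the libraries could not be settled. The median difference ranged from -4.32 to -2.92 points (siSAM68), -2.94 to -0.588 (siXRN2) and -3.03 to -0.68 (between them) without 1 library. A fit with 1 library left in a group assumes that this library varies like the others. The causes were not tested. The sites above 0 in all libraries and the omission of a library outside the comparison were chosen after seeing the data. Reads per site are not in the table, so the limit that depth sets on sites at 0 in siCTRL, whose libraries have the fewest reads, could not be computed.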
